A study of Mus musculus with 4 samples.

Results

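The mRNA of 40 cell cycle genes was followed in single immune cells of the mouse brain, with and without a glioma, to see which immune lineages held dividing cells. The genes were taken by symbol from a list of cell cycle genes, and each of the 40 was found among the 27998 genes of the count tables. They comprise 14 genes of DNA replication (S phase), 24 genes of the passage through G2 into mitosis (G2/M), and Stmn1 and Lmnb1, which were put in neither phase.

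A cell that divides first copies its DNA and then separates the copies. In S phase the MCM helicase unwinds the DNA, the sliding clamp Pcna holds the polymerase on it, and enzymes of nucleotide synthesis supply the building blocks. In G2 and mitosis cyclin A and cyclin B drive the kinase Cdk1, Aurora and Polo kinases build the spindle, and the anaphase-promoting complex ends mitosis by marking cyclin B for destruction. E2F factors are known to drive many S phase promoters, while many G2/M promoters hold a CHR element (cell cycle genes homology region) and CCAAT boxes, which are read by the DREAM and B-Myb complexes and by NF-Y. Microglia, the resident macrophages of the brain, renew slowly in health and can divide in disease, activated T cells divide rapidly, and blood neutrophils and monocytes descend from dividing precursors in the marrow.

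Immune cells came from the healthy brain of C57BL/6 mice without a tumor or from C57BL/6J mice, 8 to 12 weeks old, that had received the glioma line 005 in the hippocampus. From day 7 the tumor-bearing mice were injected intraperitoneally with a rat IgG2a isotype control (clone LTF-2, here IgG), with a Syrian hamster antibody (clone 9H10) against the T cell checkpoint receptor CTLA-4, or with the latter and a CD4 antibody (clone GK1.5) that depletes CD4 T cells, and brains were taken on day 35. The age, antibody and day of the healthy brain are not given in the sources used here. Each tumor library pooled 3 tumors and each group is 1 library, so no test between groups was possible, and every interval below (95%) covers counting error only. Sorting gave 4 fractions, CD45int CX3CR1+ microglia, CD45hi cells with CD11b, CD45hi cells with CD3 and CD45hi cells with neither, and these were mixed at equal ratios, so shares of cells are given only within a lineage. The libraries held 1400 cells (healthy brain), 1444 (IgG), 1853 (anti-CTLA-4) and 3875 (anti-CTLA-4 with CD4 depletion, called the depletion library) after filtering, at medians of 4455 to 5862 unique molecular identifiers (UMIs, counted mRNA molecules) per cell. Only 9 cell barcodes occurred in more than 1 library.

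Lineages were set by marker UMIs, such as Cd3d, Cd3e and Cd3g for T cells and Tmem119 and P2ry12 for microglia, with no use of cell cycle genes. A cell was called in G2/M when it held UMIs of at least 3 different G2/M genes, and in S when it held UMIs of at least 3 different S genes. Such a call depends on how deeply a cell was read. Shares are therefore also given with each cell thinned to 2000 UMIs, and cells shallower than that left out. Of the cells within a lineage, 45 of 2356 T cells, 48 of 1727 microglia and 64 of 1655 monocytes and macrophages were within 25% above their minimum, and 35 of those 48 microglia were in the depletion library. Of 100 dendritic cells 15 lay there, and 66 cells without a lineage were within 25% below the macrophage minimum.

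Promoter sequences of the genes show how the S and G2/M groups differ apart from their mRNA. RefSeq windows of 300 bases (250 before the transcription start and 50 from it on, build GRCm38.p6) were at hand for 32 of the 40 genes. The CHR letters TTTGAA, on either strand, were found for 16 of 21 G2/M genes and for 1 of 11 S genes, Mcm2, against 20.2% of the 27025 genes in the promoter table. The CCAAT letters, on either strand, were found for 19 of 21 G2/M genes, 8 of 11 S genes and 41.1% of all genes. An E2F site, TTGGCGC or TTCCCGC on either strand, was found for 3 of 21 G2/M genes, 5 of 11 S genes and 7.79% of all genes. The reverse of the first, GCGCCAA, overlaps CCAAT letters where a T follows it. Per promoter rather than per gene, the shares over all 32851 windows were 17.9% for CHR, 37.4% for CCAAT and 6.81% for E2F. Both CHR and CCAAT letters stood in the windows of 16 of 21 G2/M genes, 1 of 11 S genes and 8.97% of all genes. Among the G2/M genes without CHR letters were Birc5 and Nusap1, whose windows held none of the motifs searched.

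The windows of 5 genes are printed because they carry the contrast between phases described below, with CCAAT, CHR and E2F letters (either strand) in capitals and each window read 5′ to 3′ along its gene. Top2a (chr11:99024140-99024439, minus strand), Ccnb2 (chr9:70421505-70421804, minus) and Cdc20 (chr4:118437294-118437593, minus) are G2/M genes. Mcm5 (chr8:75109259-75109558, plus) and Mcm6 (chr1:128359656-128359955, minus) are S genes.
Top2a: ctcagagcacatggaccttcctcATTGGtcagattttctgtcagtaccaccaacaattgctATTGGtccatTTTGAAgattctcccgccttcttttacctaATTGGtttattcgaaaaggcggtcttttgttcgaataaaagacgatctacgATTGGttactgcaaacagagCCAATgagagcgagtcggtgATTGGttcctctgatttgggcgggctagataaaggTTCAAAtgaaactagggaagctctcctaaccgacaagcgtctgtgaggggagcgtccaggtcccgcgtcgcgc
Ccnb2: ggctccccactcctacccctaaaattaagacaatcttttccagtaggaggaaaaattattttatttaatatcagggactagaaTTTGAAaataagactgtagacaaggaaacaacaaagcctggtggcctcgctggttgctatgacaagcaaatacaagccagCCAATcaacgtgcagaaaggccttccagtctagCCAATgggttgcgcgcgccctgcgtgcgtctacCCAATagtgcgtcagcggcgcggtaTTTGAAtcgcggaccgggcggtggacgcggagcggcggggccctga
Cdc20: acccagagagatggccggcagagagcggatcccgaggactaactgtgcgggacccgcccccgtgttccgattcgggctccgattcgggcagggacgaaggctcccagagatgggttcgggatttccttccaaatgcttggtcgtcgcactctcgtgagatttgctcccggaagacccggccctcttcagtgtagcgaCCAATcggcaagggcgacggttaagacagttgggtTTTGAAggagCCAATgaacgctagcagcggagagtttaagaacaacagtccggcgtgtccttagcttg
Mcm5: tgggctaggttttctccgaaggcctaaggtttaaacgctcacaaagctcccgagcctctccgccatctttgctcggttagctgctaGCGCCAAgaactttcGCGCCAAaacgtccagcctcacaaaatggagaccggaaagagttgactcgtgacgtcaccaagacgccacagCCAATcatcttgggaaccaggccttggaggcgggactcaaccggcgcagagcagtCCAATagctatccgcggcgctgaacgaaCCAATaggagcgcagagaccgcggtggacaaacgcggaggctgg
Mcm6: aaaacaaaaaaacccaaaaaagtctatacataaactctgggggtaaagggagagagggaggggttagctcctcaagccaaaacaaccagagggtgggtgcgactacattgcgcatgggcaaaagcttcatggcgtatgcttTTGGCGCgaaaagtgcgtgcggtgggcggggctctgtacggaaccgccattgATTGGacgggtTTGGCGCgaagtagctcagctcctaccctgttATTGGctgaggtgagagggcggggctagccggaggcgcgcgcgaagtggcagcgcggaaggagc
In the windows of Top2a, Ccnb2 and Cdc20 a CHR match began at base -23, 5 and -18 from the start site, with CCAAT letters upstream of it. The windows of Mcm5 and Mcm6 held 2 E2F matches each and no CHR letters. A match of letters is a description of the sequence and not evidence of binding.

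Cells called in G2/M lay in different lineages in the 4 libraries. In the healthy brain 24 of 45 calls (53.3%) were neutrophils, 9 were monocytes and macrophages, 5 were T cells, 5 were B cells and none was a microglial cell. In the IgG library 28 of 57 calls (49.1%) were T cells and 16 (28.1%) were microglia. In the anti-CTLA-4 library 37 of 76 calls (48.7%) were T cells, 10 were NK cells, 9 were monocytes and macrophages and 8 were microglia. In the depletion library 85 of 214 calls (39.7%) were T cells and 77 (36.0%) were microglia. These counts follow the mixing of sorted fractions and the number of cells read, so the shares within each lineage are the values to compare.

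**Figure D1:**
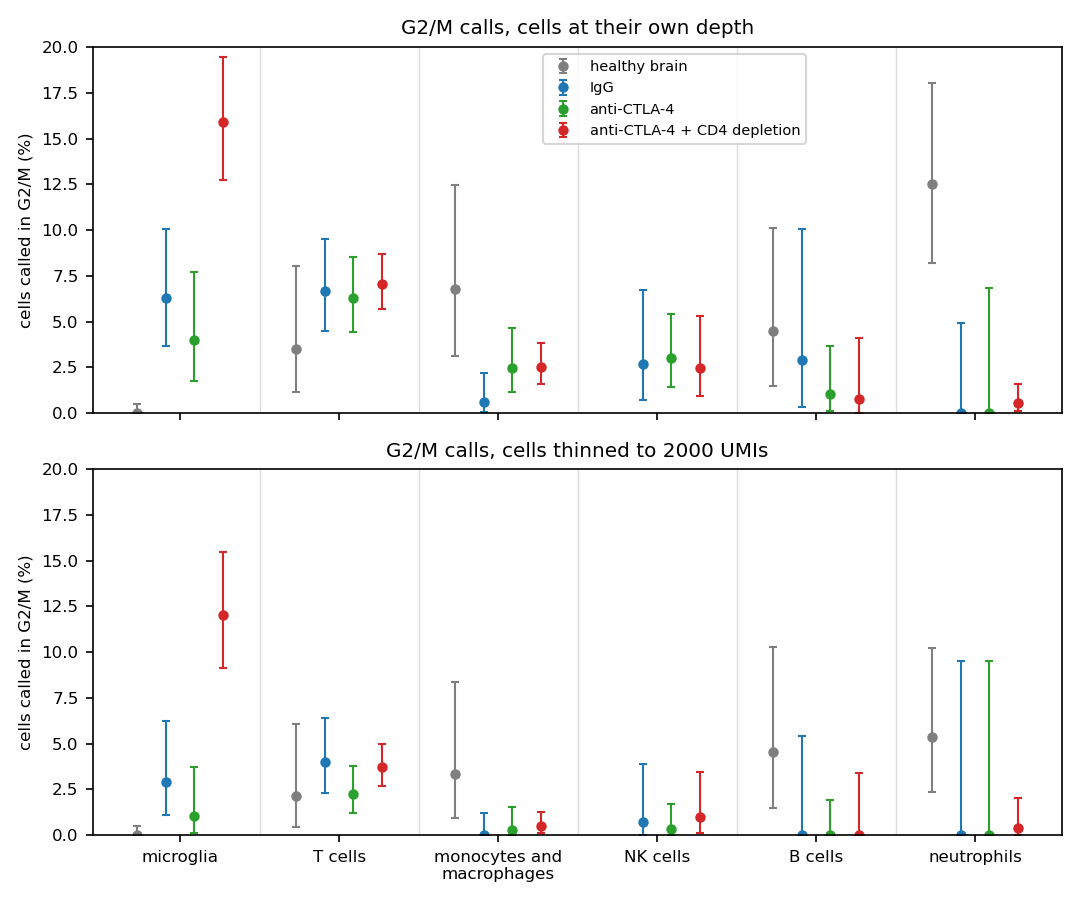
Share of cells called in G2/M (percent, vertical axis) for 6 lineages and 4 libraries, at each cell's own depth (top) and thinned to 2000 UMIs (bottom). Points are shares and bars are exact 95% binomial intervals. Microglia of the depletion library stand at 15.9% and healthy microglia at 0, while T cells of the 3 tumor libraries lie between 6.26% and 7.07%.

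Among microglia the G2/M share ran from 0 in the healthy brain to 15.9% after CD4 depletion. It was 0 of 787 cells in the healthy brain, which allows a share of up to 0.381%, and 16 of 254 cells or 6.30% (3.64 to 10.0%) with IgG. It was 8 of 201 cells or 3.98% (1.73 to 7.69%) with anti-CTLA-4 and 77 of 485 cells or 15.9% (12.7 to 19.4%) with anti-CTLA-4 and CD4 depletion. The depletion interval lay above the other 3, and the intervals of IgG and anti-CTLA-4 overlapped. Thinned to 2000 UMIs the shares were 0, 2.91%, 1.04% and 12.0%. With double the marker minimum for the lineage, the shares were 0, 6.63%, 1.69% and 9.17%, and the depletion interval (6.32 to 12.8%) then overlapped that of IgG (3.58 to 11.1%).

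Most called microglia of the depletion library carried many G2/M transcripts. UMIs of 8 or more of the 24 G2/M genes were found in 43 of its 77 called cells, against 7 of 16 with IgG and 2 of 8 with anti-CTLA-4. At the other end, 696 of 787 healthy microglia held no UMI of any G2/M gene, and 9 held UMIs of 2, just below the call. Called microglia were deeper than uncalled ones, with medians of 8305 against 4757 UMIs in the depletion library and 13577.5 against 5672 with IgG. The microglial marker list summed to 7697 counts per 1000000 UMIs (CPM) in called and 10680 CPM in the other microglia of the depletion library, and the monocyte and macrophage list to 1841 and 1662 CPM. With anti-CTLA-4 these lists stood at 7916 and 15689 CPM and at 2027 and 1011 CPM. All 9 microglial markers had UMIs in the called cells of each tumor library. Whether the lower marker level plays a part in the call was not tested.

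**Figure D2:**
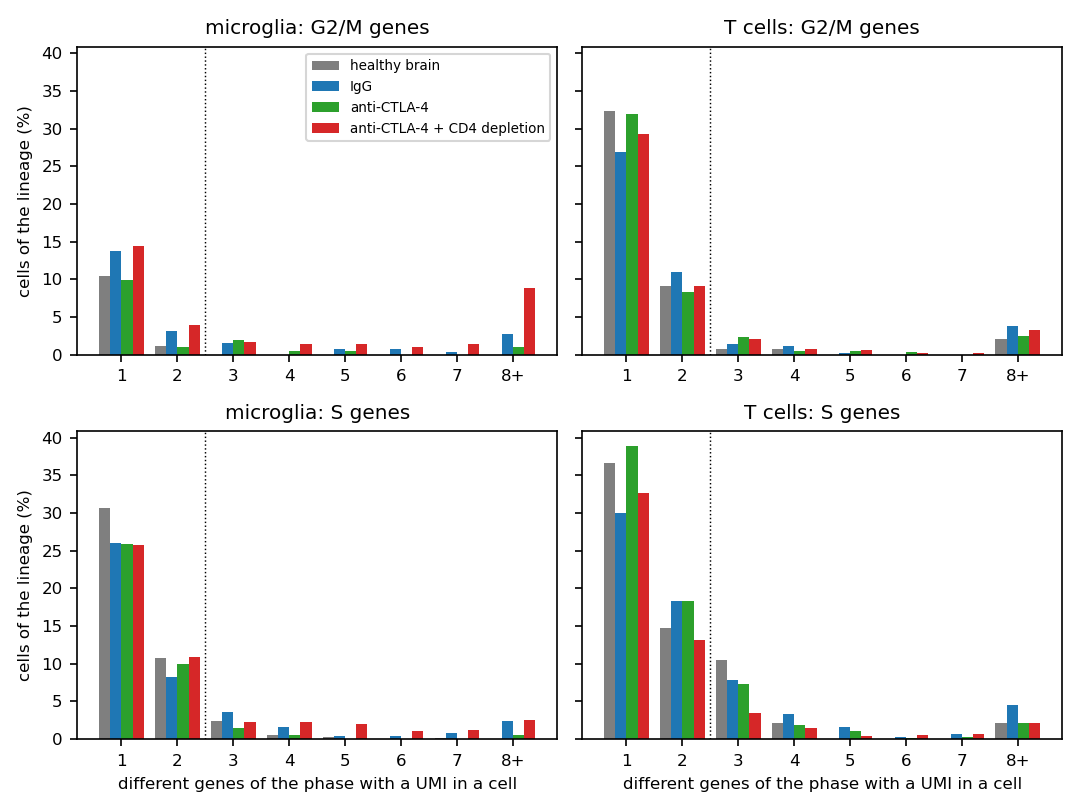
Number of different genes of a phase with a UMI per cell, for microglia and T cells in each library, as the percentage of cells. Cells with at least 3 genes (right of the dotted line) were called, cells with none are not drawn, and the depletion library is the one with the most microglia at 8 or more G2/M genes (43 of 485 cells).

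Levels of single genes are given as CPM, the UMIs of a gene summed over all cells of a lineage and library and divided by their total UMIs, per 1000000. Of the cyclins and their kinase, Ccnb2 (cyclin B2) was at 0 CPM in microglia of the healthy brain, 22.4 CPM with IgG, 12.3 CPM for anti-CTLA-4 and 35.5 CPM with CD4 depletion. Cdk1, the kinase of mitotic entry, was at 6.79, 23.0, 9.83 and 29.1 CPM in the same order. Both were lowest in the healthy brain and highest with depletion. Ube2c, the conjugating enzyme of the anaphase-promoting complex, was at 0, 34.2, 22.1 and 56.6 CPM. Cdc20, its activator, was at 0.243, 14.6, 4.92 and 17.9 CPM. Healthy microglia thus held 1 UMI of both genes together.

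Top2a, Mki67, Cenpa and Birc5 were lowest in microglia of the healthy brain, followed by anti-CTLA-4, IgG and depletion. Top2a, the topoisomerase that untangles sister chromatids, was at 0.485, 53.8, 23.8 and 73.8 CPM. Mki67, which coats mitotic chromosomes and is widely used as a division marker, was at 0.243, 36.4, 17.2 and 63.0 CPM. Cenpa, the histone variant of the centromere, was at 8.73, 33.6, 24.6 and 82.2 CPM. The healthy level of Cenpa was the highest among these 3 in UMIs, at 36 against 2 of Top2a and 1 of Mki67. Birc5 (survivin), a subunit of the chromosomal passenger complex with Aurkb, was at 0.728, 26.9, 11.5 and 75.1 CPM. Other genes had another order. Prc1, which bundles microtubules of the central spindle, was highest with IgG, at 0.485, 24.1, 13.9 and 19.2 CPM. Cenpe, a kinetochore motor, was at 0.728, 10.6, 11.5 and 17.6 CPM, with anti-CTLA-4 just above IgG. Hmmr, a spindle assembly factor, stood at 17.4 CPM with IgG and 17.6 CPM with depletion.

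S phase genes were present in healthy microglia as well. Mcm3, a helicase subunit, was at 32.7, 35.3, 25.4 and 32.6 CPM and was found in 15.1% of healthy and 15.9% of depletion-library microglia. Pcna was at 35.7, 34.7, 30.3 and 45.1 CPM. Across libraries these 2 genes ranged by less than 2-fold. Nucleotide supply genes had a wider range: Rrm2, the regulated subunit of ribonucleotide reductase, was at 0.485, 8.40, 2.46 and 14.4 CPM. Tk1, thymidine kinase, was at 1.21, 13.4, 6.56 and 24.6 CPM. Ccne1 (cyclin E1) had 0, 5, 0 and 17 UMIs. The 6 MCM genes summed to 78.6, 91.3, 48.3 and 103 CPM, and the 4 nucleotide supply genes to 22.8, 53.8, 26.2 and 82.8 CPM.

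Stmn1 and Lmnb1 had no part in either call. Stmn1 (stathmin), which destabilizes microtubules, was at 36.1 CPM in microglia of the healthy brain, 118 with IgG, 43.4 for anti-CTLA-4 and 233 under depletion. Lmnb1, a nuclear lamina protein, was at 10.9, 40.3, 7.37 and 44.4 CPM. For Lmnb1 the anti-CTLA-4 level was the lowest of the 4, and for Stmn1 the healthy one. These are orders of CPM values given without counting intervals.

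**Figure D3:**
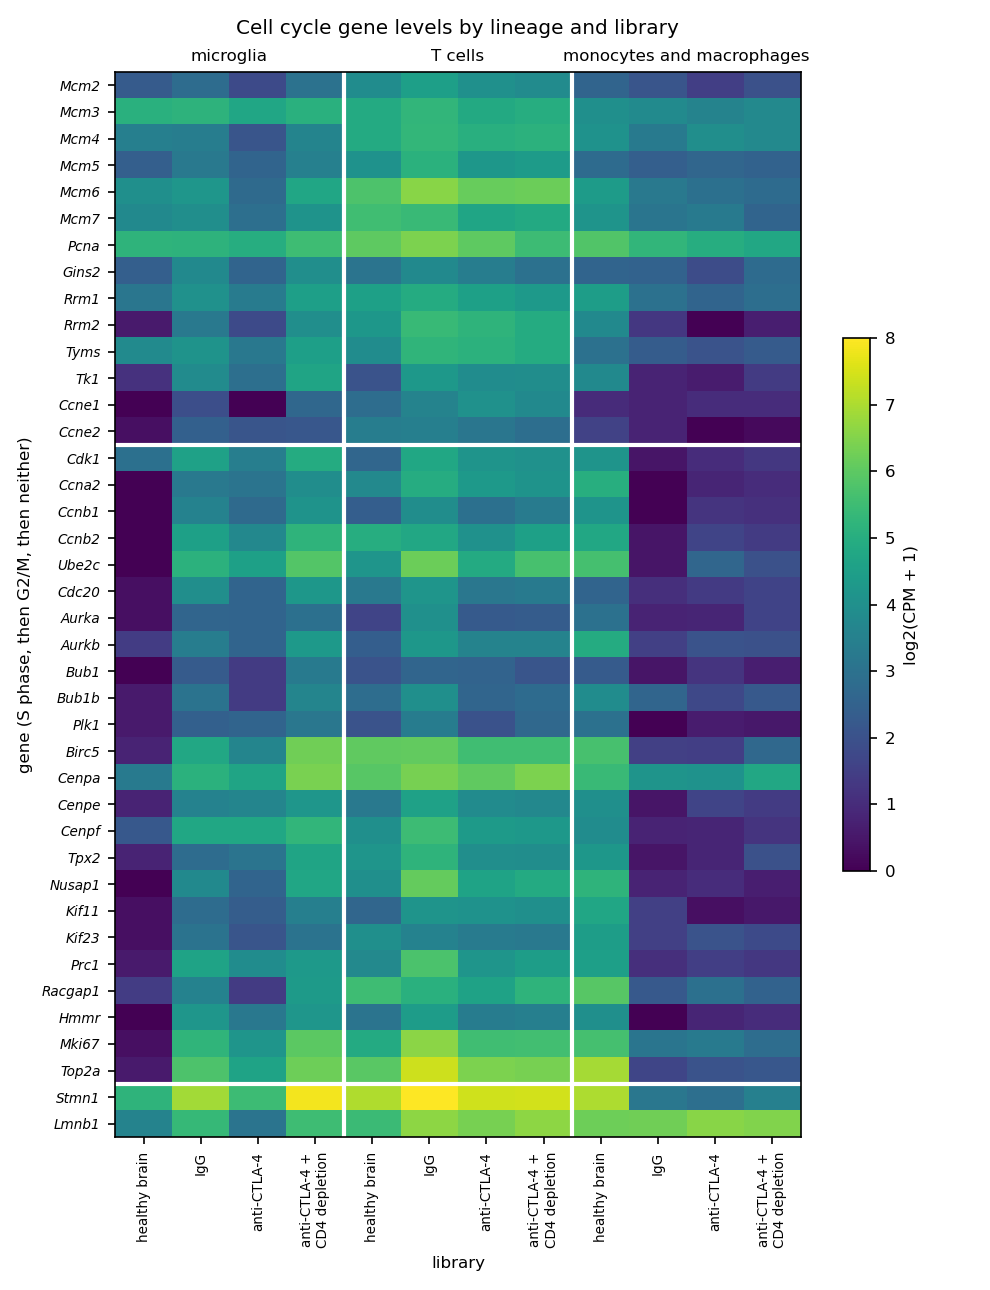
Level of each of the 40 genes, as log2(CPM + 1) in color, by lineage (column blocks) and library (columns). Most G2/M genes are near the bottom of the scale in healthy microglia (Top2a 0.485 CPM) and in tumor macrophages (Top2a 2.20 to 3.53 CPM), while MCM genes and Pcna have color in every block.

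Between libraries, a gene was compared when it had at least 20 UMIs in both together, and counted as different at a CPM ratio of at least 2. In microglia of the IgG library against the healthy brain, 28 of the 40 genes reached 20 UMIs, and 20 of them were at least 2-fold higher, against 5.83% of all 10045 genes compared. None was at least 2-fold lower, against 12.5% of all genes. The 15 G2/M genes compared were among the 20. A G2/M gene near 0 in healthy microglia can reach 20 UMIs only through the IgG library, so that count is fixed in part by the filter, and the 9 G2/M genes under 20 UMIs were Ccna2, Ccnb1, Aurka, Bub1, Bub1b, Plk1, Tpx2, Kif11 and Kif23. The ratio was 111 for Top2a (29.9 to 929, from 2 healthy UMIs) and 37.0 for Birc5 (11.9 to 185, from 3 healthy UMIs). Against the limit that 0 UMIs allow, Ube2c was at least 47.0-fold and Ccnb2 at least 30.8-fold higher.

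Of 11 S genes compared between IgG and healthy microglia, 3 were at least 2-fold higher: Tk1 with a ratio of 11.1 (4.15 to 37.2), Gins2, a subunit of the replicative helicase complex, with 2.95 (1.52 to 5.80), and Rrm1 with 2.02 (1.17 to 3.47). The ratio was 1.08 for Mcm3 (0.786 to 1.46), 1.17 for Mcm6 (0.736 to 1.84) and 0.974 for Pcna (0.712 to 1.32). Stmn1 had a ratio of 3.26 and Lmnb1 of 3.70. The median log2 ratio was 4.58 over the G2/M genes compared and 0.28 over the S genes, beside -0.30 over all genes, and the first is set in part by the same filter, since it leaves out the 9 genes under 20 UMIs. In cells without the deepest 5% of each lineage and library, an alternative chosen after seeing the data, 14 genes were counted as higher.

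With anti-CTLA-4 against IgG, 15 of 30 genes compared in microglia were at least 2-fold lower, against 2.64% of 8765 genes, and none was 2-fold higher, against 2.01%. The ratio was 0.44 for Top2a (0.28 to 0.68), 0.37 for Stmn1 (0.27 to 0.50), 0.18 for Lmnb1 (0.080 to 0.37) and 0.33 for Mcm6 (0.12 to 0.77). Cenpf, a kinetochore protein, had a ratio of 0.996 (0.615 to 1.59) and Cenpe of 1.08 (0.50 to 2.27). The list's median log2 ratio was -1.01 beside 0.03 over all genes. The anti-CTLA-4 library held 201 microglia and 8 called cells, so these sums rest on few cells. A gene low with anti-CTLA-4 also passes the filter mainly through the IgG library, which can set part of the count of 15.

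With CD4 depletion added to anti-CTLA-4, 30 of 38 genes compared in microglia were at least 2-fold higher, against 5.57% of 9285 genes, and the ratio was above 1 for 38 of 38. By phase this was 18 of 24 G2/M genes, 10 of 12 S genes, and both Stmn1 and Lmnb1. Birc5 had a ratio of 6.55 (3.83 to 12.2), Stmn1 of 5.37 (4.06 to 7.24), Mcm6 of 4.46 (2.07 to 11.4) and Rrm2 of 5.85 (1.88 to 29.4, from 3 UMIs without depletion). Racgap1, a regulator of cytokinesis, had a ratio of 11.9 (3.16 to 100.5, from 2 UMIs without depletion). The genes compared that stayed under 2 were Mcm3, Pcna, Aurka, Ccna2, Cenpe, Cenpf, Plk1 and Prc1. A gene near 0 with anti-CTLA-4 passes the UMI filter mainly through the depletion library, so the filter favors higher ratios. Of the list it left out only Ccne1 and Ccne2. With anti-CTLA-4 these were at 0 and 3.28 CPM, and with depletion at 5.43 and 3.52 CPM. The median log2 ratio was 1.54 over the list and -0.14 over all genes. The comparisons of anti-CTLA-4 with IgG and with depletion share the anti-CTLA-4 library.

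**Figure D4:**
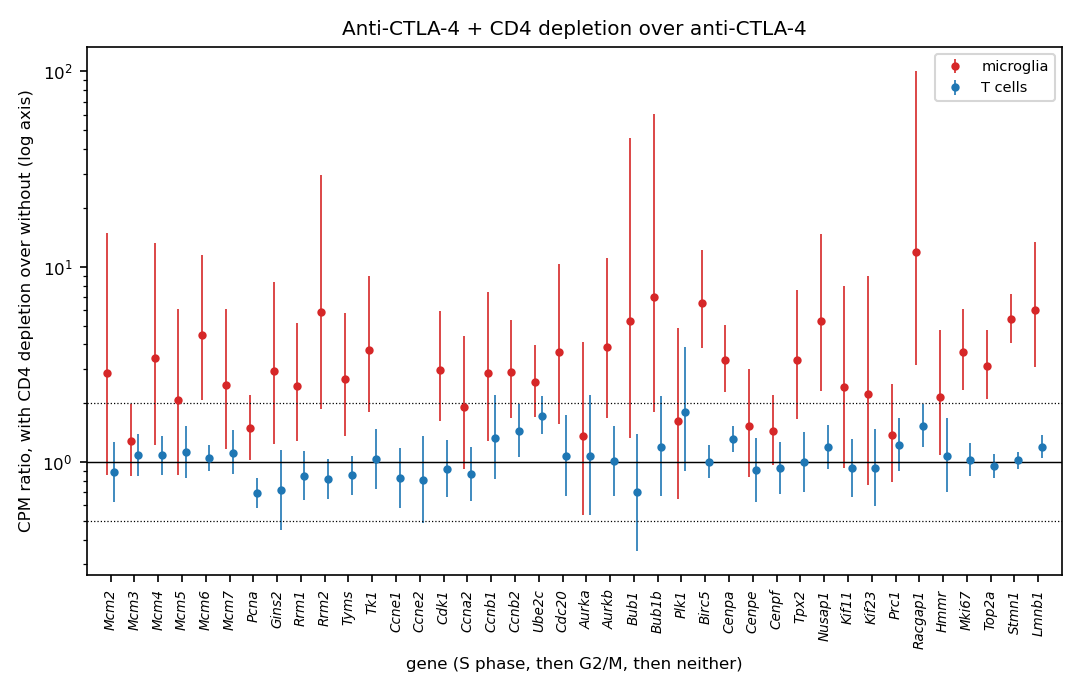
CPM ratio of the depletion library to the anti-CTLA-4 library for each gene with at least 20 UMIs in both together, in microglia and T cells (log axis). Points are ratios, bars 95% counting intervals, and dotted lines mark 0.5 and 2. Ccne1 and Ccne2 are left out for microglia (under 20 UMIs), and the microglial points lie at 1.28 (Mcm3) and above, those of T cells between 0.69 and 1.81.

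Depletion against IgG gave smaller ratios in microglia, with 6 of 39 genes at least 2-fold higher against 2.85% of 9503 genes and 37 of 39 above 1. The 6 were Tpx2, an activator of Aurora A, at 3.99 (2.11 to 8.33), Birc5 at 2.79 (2.04 to 3.90), Cenpa at 2.44 (1.84 to 3.29), Bub1, a spindle checkpoint kinase, at 2.20 (0.94 to 5.99), Aurkb at 2.01 (1.16 to 3.68) and Nusap1, a spindle microtubule protein, at 2.01 (1.25 to 3.35). Top2a had a ratio of 1.37 (1.08 to 1.76) and Mki67 of 1.73 (1.30 to 2.33). The count of 6 depended on the processing: it was 1 with double the marker minimum, and 17 without the deepest 5% of cells, 19 with the mean of CPM per cell and 22 without the cells of the highest doublet scores.

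T cells held G2/M calls in each library. The share was 5 of 142 cells or 3.52% (1.15 to 8.03%) in the healthy brain, 28 of 420 or 6.67% (4.48 to 9.49%) with IgG, 37 of 591 or 6.26% (4.45 to 8.53%) for anti-CTLA-4 and 85 of 1203 or 7.07% (5.68 to 8.66%) with depletion. Thinned to 2000 UMIs these were 2.13%, 3.98%, 2.22% and 3.70%. The 4 intervals overlapped at either depth. Called T cells were deep, with medians of 18019.5 UMIs with IgG against 5287 in the uncalled T cells, and 8576 against 3960.5 with depletion. Without the deepest 5% of T cells the shares were 0.746%, 3.76%, 3.74% and 4.82%.

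Summed levels in T cells were highest with IgG for most genes. Top2a was at 61.2 CPM in T cells of the healthy brain, 168 with IgG, 85.6 for anti-CTLA-4 and 81.4 with depletion. Mki67 was at 28.5, 97.6, 45.3 and 46.4 CPM and Nusap1 at 14.8, 68.2, 23.9 and 28.4 CPM. Mcm6 was at 53.8, 95.2, 70.0 and 73.5 CPM and was found in 21.8 to 31.0% of T cells. Lmnb1 stood apart from Top2a and Mki67, with 43.2, 99.7, 81.9 and 98.2 CPM, so that its depletion level was close to its IgG level.

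Of 39 genes compared in T cells between IgG and the healthy brain, 23 reached 2-fold higher and 0 reached 2-fold lower, against 15.1% and 2.94% of 8764 genes. They included 18 of 23 G2/M genes and 4 of 14 S genes (Mcm5, Rrm2, Tyms and Tk1). A gene near 0 in healthy T cells passes the UMI filter mainly through the IgG library, so the filter can set part of these counts. Of the 40 genes on the list, 39 passed it. Without the deepest 5% of cells 14 genes were higher. With anti-CTLA-4 against IgG, 12 of 40 genes were at least 2-fold lower, each a G2/M gene, against 2.10% of 9807 genes. The ratio was 0.25 for Aurka (0.13 to 0.46), the Aurora kinase of the spindle poles, 0.32 for Prc1 (0.24 to 0.44), 0.35 for Nusap1 (0.27 to 0.45) and 0.46 for Mki67 (0.38 to 0.56). No S gene reached 2-fold, and their median log2 ratio was -0.41 against -1.01 for the G2/M genes. By the mean of CPM per cell, 6 genes were lower.

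Between depletion and anti-CTLA-4, none of the 40 genes differed 2-fold in T cells in either direction, where 1.79% of 10105 genes were higher and 3.64% lower. The ratio was 0.951 for Top2a (0.825 to 1.10), 1.02 for Mki67 (0.844 to 1.25) and 1.73 for Ube2c (1.39 to 2.17). Without the deepest 5% of cells 18 genes were at least 2-fold higher with depletion. The share of all genes under that setting is not printed, so the 18 shows only that the count of 0 moves with the processing. Depletion against IgG had 9 of 40 genes at least 2-fold lower (4.82% of 9967 genes), among them Aurka at 0.27 and Top2a at 0.48. That count was 1 by the mean of CPM per cell and 2 without the deepest cells.

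T cells were split by UMIs of Cd4, Cd8a or Cd8b1, and Foxp3, the factor of regulatory T cells. The depletion library held few CD4 cells: 16 of its 1203 T cells had Cd4 without Cd8 or Foxp3 UMIs, and 1 had Cd4 and Foxp3 UMIs without Cd8, against 142 and 37 of 591 with anti-CTLA-4. Among CD8 cells the G2/M share was 4 of 60 (6.67%) in the healthy brain, 7 of 87 (8.05%) with IgG, 18 of 174 (10.3%) for anti-CTLA-4 and 74 of 802 (9.23%) with depletion. The intervals in this order were 1.85 to 16.2%, 3.30 to 15.9%, 6.25 to 15.9% and 7.31 to 11.4%, and they overlapped. After thinning the CD8 shares were 5%, 2.41%, 5.20% and 4.62%, so IgG was then the lowest. CD8 cells thus made up 74 of the 85 called T cells of the depletion library. Among CD4 cells with Foxp3 UMIs it was 8 of 53 (15.1%, 6.75 to 27.6%) with IgG and 5 of 37 (13.5%) with anti-CTLA-4, or 11.5% and 2.70% after thinning. Over T cells with Foxp3 UMIs whatever their coreceptor UMIs, it was 11 of 123 (8.94%) for IgG, 8 of 103 (7.77%) for anti-CTLA-4 and 11 of 143 (7.69%) for depletion, or 7.69%, 1.96% and 5.34% after thinning. CD4 cells without Foxp3 UMIs had 0 of 40 in the healthy brain (which allows up to 7.5%), 7 of 88 (7.95%) with IgG and 5 of 142 (3.52%) with anti-CTLA-4. The intervals of CD4 subsets are wide, and a cell without a Foxp3 or coreceptor UMI may still express the gene.

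Among monocytes and macrophages the G2/M share was highest in the healthy brain, where that of microglia was 0. Their G2/M share was 9 of 133 cells or 6.77% (3.14 to 12.5%) in the healthy brain, 2 of 326 or 0.613% with IgG, 9 of 363 or 2.48% for anti-CTLA-4 and 21 of 833 or 2.52% with depletion. After thinning it was 3.36%, 0, 0.279% and 0.487%. Top2a was at 121, 2.20, 3.13 and 3.53 CPM and Stmn1 at 128, 8.05, 6.52 and 10.3 CPM in these cells. Of 22 genes compared between IgG and the healthy brain, 18 were at least 2-fold lower, against 9.59% of 8435 genes. Genes near 0 in IgG macrophages reach 20 UMIs only through the healthy cells, so the filter sets part of this count. Without the deepest 5% of cells, 11 genes could be compared and 1 was lower. The called healthy cells also held more of the neutrophil list than the uncalled ones (1844 against 496 CPM). The myeloid precursor list stood at 243 against 23.3 CPM, with 4 and 6 of its 7 genes at 0. Over all libraries, its gene Prtn3 was at 59.2 CPM in monocytes and macrophages, Elane at 0.904 and Mpo at 0.209. The part of these lists in the result was not tested. With depletion against anti-CTLA-4, 3 of 23 genes were at least 2-fold higher in these cells (4.22% of 9765 genes), Gins2 at 2.31 (1.14 to 5.17), Birc5 at 3.06 (1.35 to 8.11) and Tpx2 at 3.75 (1.11 to 19.7, from 3 UMIs). Lmnb1 again stood apart, with 75.1, 75.4, 94.2 and 89.5 CPM and UMIs in 33.7 to 46.3% of tumor macrophages.

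Within the tumor libraries the lineages differed. T cells against monocytes and macrophages had 38 of 39 genes at least 2-fold higher with IgG (20.1% of all genes), 37 of 38 with anti-CTLA-4 (22.0%) and 35 of 40 under depletion (20.5%). T cells against microglia had 27 of 40 higher with IgG (16.7%) and 26 of 39 with anti-CTLA-4 (18.2%). With depletion, T cells and microglia were alike in number, with 5 of 40 genes higher in T cells (16.0%) and 4 lower (23.6%). The 4 that were lower in T cells were Gins2, Cdc20, Bub1 and Cenpf, and the 5 that were higher were Mcm4, Mcm6, Rrm2, Ccne1 and Lmnb1.

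Neutrophils had most of the G2/M calls of the healthy brain and almost none in tumors. The share was 24 of 192 cells or 12.5% (8.18 to 18.03%) in the healthy brain, 0 of 73 with IgG (up to 4.11%), 0 of 52 with anti-CTLA-4 (up to 5.77%) and 3 of 549 or 0.546% with depletion. After thinning, which leaves out cells under 2000 UMIs, the first was 8 of 150 cells or 5.33% and the last 0.365%. The 24 called healthy neutrophils were of unusual depth, since 16 had under 1500 UMIs and 7 over 10000. Healthy neutrophils under 1500 UMIs numbered 28 in all. The 16 called ones among them could not enter the thinned share, so its fall is not a correction for depth alone. The myeloid precursor list summed to 271 CPM in them and 4.71 CPM in the other healthy neutrophils, with 4 and 5 of its 7 genes at 0. The neutrophil list summed to 382154 CPM in uncalled healthy neutrophils and 44604 to 68255 CPM in those of the tumor libraries. The part of these lists in the result was not tested. Top2a was at 171 CPM in healthy neutrophils, from 183 UMIs, and at 0, 6.63 and 3.58 CPM in those of the tumor libraries. Of 29 genes compared in neutrophils between IgG and the healthy brain, 20 were at least 2-fold lower, against 10% of 4957 genes. Genes near 0 in IgG neutrophils reach 20 UMIs only through the healthy cells, so the filter sets part of this count as well. Healthy B cells had 5 of 112 calls (4.46%, 1.47 to 10.1%), each also called in S and each with UMIs of 8 or more G2/M genes, and tumor B cells 0.752 to 2.90%. The B cell list was at 2831 CPM in the called and 11185 CPM in the other healthy B cells, and the erythroid list (5 genes, mostly hemoglobins) at 0 and 25838 CPM. In uncalled B cells of the IgG library the erythroid list was at 34816 CPM, and its part in the result was not tested. Stmn1 was at 525, 7.07, 38.8 and 33.9 CPM in B cells of the 4 libraries, and 24 of 24 genes compared between IgG and the healthy brain were at least 2-fold lower, against 15.2% of 4739 genes. A gene near 0 in IgG reaches the filter through the healthy cells. NK cells, of which the healthy brain held 2, had 2.68%, 2.99% and 2.48% in the tumor libraries and 0.306 to 0.971% after thinning. Called cells were also set against the others with a gene left out of the call it was compared under. In NK cells with anti-CTLA-4, 0 of 3 G2/M genes with at least 20 UMIs were 2-fold higher in called cells and 1 was lower. With depletion 2 of 3 were higher and 1 was lower. Over all libraries together 5 of 6 were higher, with a median ratio of 7.09. The shares over all genes are not given for these NK counts. In monocytes and macrophages the median was 4.03 over 4 G2/M genes with anti-CTLA-4 (range 1.03 to 32.4). It was 9.48 over 9 genes with depletion (1.31 to 206) and 67.7 over 13 in the healthy brain (6.41 to 271). A gene with 0 UMIs in the other cells entered these medians at its lower bound.

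The ratio of summed S to summed G2/M levels differed between lineages and libraries. In microglia S genes summed to 142 CPM and G2/M genes to 27.9 CPM in the healthy brain, a ratio of 5.08. In tumor microglia the ratio was 0.48 with IgG, 0.47 for anti-CTLA-4 and 0.36 with depletion, from 416, 238 and 697 CPM of G2/M and 199.98, 113 and 254 CPM of S genes. T cells were between 0.53 and 0.77 in each library. Monocytes and macrophages were at 0.28 in the healthy brain and at 2.09, 1.36 and 1.15 in the tumor libraries.

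In microglia 3.30% of healthy cells were called in S, 9.06% with IgG, 2.49% for anti-CTLA-4 and 11.3% with depletion. None of the 26 healthy microglia called in S was also called in G2/M, against 9 of 23, 2 of 5 and 33 of 55 in the tumor libraries. Thinned to 2000 UMIs the S shares were 0.414%, 1.94%, 0.521% and 2.54%. In T cells 14.8%, 18.3%, 12.9% and 8.56% were called in S, or 4.26%, 4.73%, 2.73% and 2.53% after thinning. Of the T cells called in G2/M, 22 of 28 with IgG were also called in S, 22 of 37 with anti-CTLA-4 and 50 of 85 under depletion.

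Within the depletion library, cells called in G2/M were compared with the other cells of their lineage, with a G2/M gene left out of the call it was compared under. In microglia the 24 G2/M genes were at least 2-fold higher in called cells, against 4.90% of 8450 genes, with a median ratio of 45.3. Cenpf, for one, had 117 UMIs in called and 1 in other cells, a ratio of 368 (64.8 to 14659), and Nusap1 81 and 0, at least 84.9-fold. The 12 S genes compared were also at least 2-fold higher, with a median ratio of 4.55. Within S the nucleotide genes led, with 44.0 for Rrm2 (14.1 to 222, from 3 UMIs in other cells) and 13.002 for Tk1 (7.31 to 24.6), while the MCM genes were between 2.39 (Mcm3) and 6.01 (Mcm5). Stmn1 had a ratio of 14.8 (12.2 to 18.05) and was found in 94.8% of called and 18.4% of other microglia.

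T cells of the depletion library gave a like pattern. The 23 G2/M genes compared had a median ratio of 43.7 and the 14 S genes of 7.93, each at least 2-fold, against 7.97% of 9164 genes. The smallest G2/M ratios were 4.16 for Racgap1 (3.08 to 5.58) and 6.89 for Cenpa (5.73 to 8.28), which had UMIs in 10.0% and 18.4% of other T cells. Mcm6 had a ratio of 2.62 (2.10 to 3.25), with UMIs in 20.2% of other T cells. The G2/M genes were called with each other's help, so their ratios describe how tightly they go together, and S genes, Stmn1 and Lmnb1 had no part in the call.

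**Figure D5:**
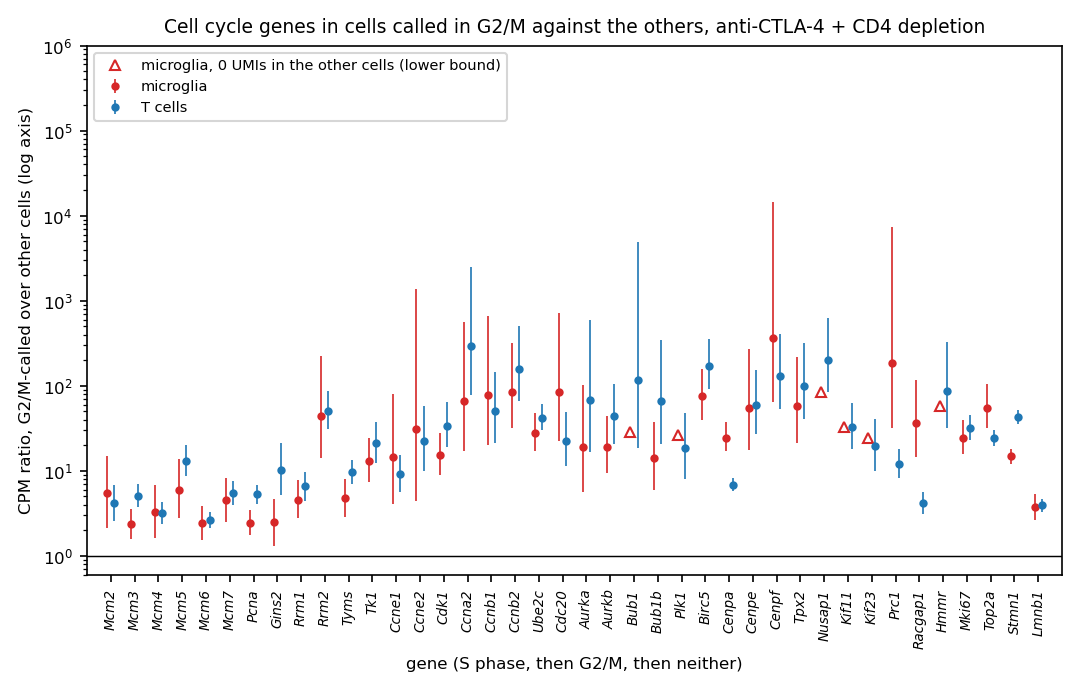
CPM ratio of cells called in G2/M to other cells of the depletion library, for each gene, in microglia and T cells (log axis). Bars are 95% counting intervals, and triangles are lower bounds for genes with 0 UMIs in the other microglia. MCM genes lie between 2.39 and 13.1 in either lineage and most G2/M genes above 14.

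Other cell cycle genes in the same cells were read from a list of 85. In called microglia of the depletion library 19 of 20 other G2/M genes compared were at least 2-fold higher, against 4.90% of all 8450 genes. Among them were Cdca3 at 120 (39.9 to 588, from 3 UMIs) and Dlgap5 at 97.5 from 1 UMI (16.3 to 3974). The exception, named after its value was seen, was Pttg1 (securin) at 1.28. Of the other S genes 11 of 14 were higher, led by Asf1b, a histone chaperone, at 18.3 (7.64 to 53.4). G1 cyclins and their kinases did not differ 2-fold in any of 6 cases, from 0.506 for Cdk6 to 1.69 for Cdk4. Of 5 CDK inhibitors 2 were higher, Cdkn2c at 4.38 (2.74 to 7.08) and Cdkn2a at 2.60 (1.45 to 4.63), and Cdkn1b (p27) was at 0.599 (0.370 to 0.932). In T cells 18 of 19 other G2/M and 16 of 17 other S genes were higher, against 7.97% of all 9164 genes. Of 5 CDK inhibitors 3 were higher, Cdkn2a at 12.9 (6.41 to 27.4), Cdkn1a at 6.25 (3.58 to 10.9) and Cdkn2c at 3.32 (2.22 to 4.89). Ccnd2 (cyclin D2) was at 0.517 (0.432 to 0.614) in called T cells. Of 5 quiescence genes 1 was at least 2-fold lower in called T cells (6.71% of all genes), Tob1 at 0.244 (from 2 UMIs, 0.029 to 0.927). In called microglia none of 4 was 2-fold lower (6.75% of all genes), from 0.530 for Btg2 to 1.67 for Klf2.

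Outside these lists, the genes with the largest ratios between cells called in S or G2/M and the others were taken over the 4 libraries together. The healthy brain held 27 of 44 called neutrophils but 192 of all 866. It held 26 of 166 called microglia but 787 of all 1727. Differences between libraries therefore cannot be told apart in these ratios from differences between called and other cells. In microglia they were led by Cdkn3, a phosphatase of cyclin-dependent kinases, at 35.1 (17.4 to 80.1), Cenpw, a centromere protein, at 13.3, and the condensin subunits Smc4 at 6.85 and Smc2 at 6.55. In T cells Smc2 led at 6.31 (5.31 to 7.52), and Gmnn (geminin), an inhibitor of relicensing, stood at 4.003. In monocytes and macrophages the leading genes were Olfml3 at 3.58 and S100a8 at 3.43, one a microglial and the other a neutrophil marker, and division genes such as Dbf4 at 2.91 came after them. In neutrophils the leading genes were replication-dependent histones, Hist1h1b at 182 (69.5 to 678) first, with Fcnb at 25.1 and Cebpe at 4.67, both known from neutrophil precursors. Replication histone transcripts mostly lack a poly(A) tail, so a poly(A)-primed library reads them in part.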

How the data were processed

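The deposited files hold raw UMI counts per gene and cell, made with Cell Ranger 3.1.0 per the file headers and mm10 per the submitters' processing notes. Other steps of the authors are not given in the sources used here. Cells were kept from 200 detected genes upward if mitochondrial UMIs made up no more than 10%. A cell was assigned to a lineage by marker UMIs per 10000 (at least 2 marker UMIs). For certain pairs of lineages a set order kept the cell in the first, such as T before NK cells and dendritic cells before macrophages. Cells that passed for both neutrophils and macrophages went to the list with the higher rate. Cells that still passed for more than 1 of 8 lineages were left out as mixed. Of the listed markers 6 were not among the genes of the tables, so T cells rest on Cd3d, Cd3e, Cd3g, Lck and Themis. Shares carry exact Clopper-Pearson, levels exact Poisson and ratios conditional binomial 95% intervals, and a count of 0 is limited at 3 counts. With 1 library per group no test was made. Beside the 40 genes, up to 4 genes per other class with the largest ratio and 8 genes outside the lists per lineage were named (at least 50 UMIs in called cells, a UMI in at least 25% of them). The genes and lists were chosen with earlier results of these data known. Gene ratios, the 2-fold rule and the ratio intervals were tested on simulated counts, and thinning on part of the cells. The calls of cells in S or G2/M and the lineage minimums were not tested on simulated data. Python 3.11.15, numpy 2.4.6, scipy 1.17.1, pandas 2.3.3, scanpy 1.11.5 and matplotlib 3.10.9 were used.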

Additional observations from a re-analysis of the deposited data

How the results depend on the processing

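No paired analysis was possible because each group is 1 library, and for the same reason no replicate could be left out. With a call at 2 genes the G2/M share was 1.14% in healthy and 19.8% in depletion-library microglia, and in T cells 12.7% in the healthy brain, 17.6% for IgG, 14.6% for anti-CTLA-4 and 16.2% for depletion. At 4 genes it was 3.89% in T cells with anti-CTLA-4 and 4.99% with depletion. Thinned to 2000 UMIs microglia stood at 2.91% (IgG), 1.04% (anti-CTLA-4) and 12.0% (depletion), and T cells at 3.98%, 2.22% and 3.70%. Thinned to 1000 UMIs the values were 2.69%, 1.03% and 6.67% in microglia and 3.14%, 1.86% and 2.93% in T cells. With double the marker minimum microglia stood at 1.69% with anti-CTLA-4 and 9.17% with depletion. Leaving out the deepest 5% of each lineage and library, chosen after seeing the data, gave 1.57% in microglia with anti-CTLA-4 and 0.746%, 3.76%, 3.74% and 4.82% in T cells. A minimum of 1500 UMIs per cell was also chosen after seeing the data.

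The counts in this paragraph show only how far the main counts move with the processing. The share of all genes past the threshold was computed anew under each setting and is not printed here. These counts, and those under other settings given above, are therefore not to be read on their own. Fewer genes reach 20 UMIs after thinning to 2000 UMIs. Between IgG and the healthy brain the thinned counts were 2 higher in microglia, 6 higher in T cells and 1 lower in macrophages. They were 1 lower in microglia and 6 lower in T cells with anti-CTLA-4 against IgG, 12 higher in microglia and 4 higher in T cells with depletion against anti-CTLA-4, and 2 lower in T cells with depletion against IgG. With at least 50 UMIs the microglial counts were 10 (IgG against healthy) and 6 (anti-CTLA-4 against IgG), and that of macrophages was 7. With at least 1 UMI they were 32 in microglia and 31 in macrophages for IgG against healthy. At a ratio of 1.5 the counts were 23 in microglia and 20 in T cells for anti-CTLA-4 against IgG, 3 in T cells for depletion against anti-CTLA-4, and 20 in microglia and 23 in T cells for depletion against IgG. By the mean of CPM per cell they were 6 in T cells for anti-CTLA-4 against IgG, 2 in T cells for depletion against anti-CTLA-4, and 19 in microglia and 1 in T cells for depletion against IgG. Median-of-ratios size factors gave 10, double the marker minimum 1 and leaving out the top 5% of Scrublet doublet scores 22 in microglia for depletion against IgG, and double the minimum gave 1 in T cells for depletion against anti-CTLA-4. Without the deepest cells the counts were 14 in T cells and 1 in macrophages for IgG against healthy, 18 in T cells for depletion against anti-CTLA-4, and 17 in microglia and 2 in T cells for depletion against IgG. The causes were not tested. Shares of microglia with anti-CTLA-4 rest on 8 called cells, and a share under the limit given for a count of 0 was not detectable.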

Other observations

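Microglia of the tumor libraries were split at 39.0 UMIs per 10000 of 3 MHC class II genes, the pooled median, a cut chosen after seeing the data. The G2/M share above and below it was 13 of 210 cells (6.19%) and 3 of 44 (6.82%) with IgG, 8 of 161 (4.97%) and 0 of 40 with anti-CTLA-4, and 20 of 99 (20.2%, 12.8 to 29.5%) and 57 of 386 (14.8%, 11.4 to 18.7%) with depletion. Of the depletion-library cells, 24 above and 35 below lay within 25% of the cut. Cells without a lineage held 2, 3, 3 and 14 G2/M calls in the healthy, IgG and anti-CTLA-4 libraries and under depletion, among 8, 71, 46 and 315 such cells.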
